A study of Homo sapiens with 8 samples.

Results

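Known spliced transcripts with an annotated length of at least 5000 bases were taken from TALON tables of direct RNA sequencing, in which native RNA molecules are read through a nanopore without being copied into cDNA. They were the models classed as known, with at least 2 exons and a length of 5000 bases or more, and they numbered 2259 of 506946 models, from 2001 genes. Another 31809 known spliced models were shorter. The 8 libraries came from K562, a line from chronic myeloid leukaemia (2 libraries), HepG2, a line from liver cancer (3 libraries), and GM12878, a B cell line immortalised with Epstein-Barr virus (3 libraries). Each line is the culture of 1 donor's cells, no treatment is named for any of them, and whether the libraries of a line stem from different cultures is not labelled, so the spread behind each p-value may be technical. The study was meant to set these reads beside PacBio reads analysed with the same program, and the PacBio reads were not analysed here.

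Libraries held 70374 to 461497 reads. K562 carries the same cell type label as GM12878 (lymphoblastoid). The summed level of 9 B cell markers was 6.38 to 7.001 CPM (reads scaled to the library total) in K562, 147 to 213 in HepG2 and 11080 to 11543 in GM12878, and 6 of the 9 were at 0 in K562. Summed erythroid markers reached 30824 to 37679 CPM in K562, 80.2 to 96.6 in HepG2 and 17.0 to 28.4 in GM12878, and summed hepatocyte markers were at 0 in K562, at 74487 to 85708 CPM in HepG2 and at most 22.7 in GM12878. Markers of T and NK cells and of fibroblasts stayed at or below 28.7 CPM in every library. Myeloid markers reached 1195 to 1453 CPM in HepG2 and at most 6.59 elsewhere. In HepG2 only 2 of the 6 myeloid markers had reads, with MPO, ELANE, CSF1R and ITGAM at 0. The HepG2 sums of B cell and erythroid markers came from 4 of 9 and 1 of 8 genes.

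A spliced mRNA starts with a first exon that usually holds the 5′ untranslated region and the start codon, continues through internal exons, and ends with a last exon that often holds most of the 3′ untranslated region. Nanopores read native RNA from its poly(A) tail, so a read that stops early keeps the 3′ end and loses the 5′ end. TALON assigns a read to a known spliced model when its chain of splice junctions matches that model's. For 86 of the long models, with 696 reads (4.08% of the long-transcript reads), another annotated transcript has the same introns. None of these other transcripts was counted separately. For 50 of the long models, with 399 reads, such a transcript is under 5000 bases, and which transcript was read was not tested. The length in the tables was that of the annotation and not of the read: all 35496 known models had the length and the exon number of their GENCODE 29 entry. The sum of the internal exons is therefore used below as the smallest stretch that holds every junction of a model.

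RPL37-201, which encodes a protein of the large ribosomal subunit, shows how short that stretch can be. The transcript is annotated at 7686 bases on the minus strand (GRCh38 chr5:40825262-40835335), and its coding sequence takes positions 151 to 441. Its last exon alone is 7312 bases long. Its 2 internal exons together have 221 bases, read here from the GENCODE 29 transcript, 5′ to 3′, with the bases on either side of their junction in capitals.
RPL37-201 internal exons: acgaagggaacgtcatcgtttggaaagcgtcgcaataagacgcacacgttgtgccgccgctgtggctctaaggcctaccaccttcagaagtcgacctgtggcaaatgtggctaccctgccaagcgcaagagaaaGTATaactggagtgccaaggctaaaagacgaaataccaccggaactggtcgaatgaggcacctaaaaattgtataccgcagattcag
All 3 junctions of the 7686-base model lie within or at the ends of these 221 bases.

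RPL14, whose product is another protein of the large ribosomal subunit, has several known models that differ at the 5′ end and in the last exon. RPL14-201 is annotated at 7072 bases (GRCh38 chr3:40457292-40468587, plus strand), with a last exon of 6649 bases, and RPL14-202 at 916 bases, with a last exon of 430 bases. They share exons 2 to 5 and the start of exon 6, and their first junctions use different donor sites, 111 bases apart. RPL14-208, annotated at 794 bases without a coding sequence, starts 13 bases before exon 2 of the other models, so its 4 introns are the last 4 of RPL14-201 and it lacks the first junction. The 30 bases around that junction tell RPL14-201 from RPL14-202, and the 30 bases around the last junction are the same in all 3 models (GENCODE 29 transcripts, 5′ to 3′, with the downstream exon in capitals).
RPL14-201 first junction: aacgccgccaacatgGTGTTCAGGCGCTTC
RPL14-202 first junction: cccgggaagcgcatgGTGTTCAGGCGCTTC
RPL14-201, RPL14-202 and RPL14-208 last junction: aaggcaaagaaaatgAGGAACAGAATAATC
RPL14-201 and RPL14-202 thus share every junction but the first, and the 6649-base last exon lies downstream of the last one.

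Of the 2259 long transcripts, 1046 (46.3%) had a read in at least 1 library, 220 had at least 10 reads, and 1213 had none. Among the shorter known spliced models 59.0% had a read. Both are shares of the models of this series, which do not hold every annotated transcript, and not of the annotation. Reads on the long transcripts numbered 17046, against 737794 on the shorter ones. A read was seen for 542 of them in K562, 701 in HepG2 and 599 in GM12878, for 271 in all 3 lines and for 75 in all 8 libraries. At the threshold, SUFU-202 and TAL1-201 (5001 bases) and CABLES1-201 (5002 bases) lay just inside with 3, 2 and 19 reads, while MYNN-201 (4999 bases), BRD1-205 and TMEM64-203 (4997 bases each) lay just outside with 2, 1 and 1. Protein-coding models made up 2130 of the members and held 16792 reads. The 129 of other annotated types held 254 reads, 169 of them on 75 models annotated as retained introns. Chosen after their values were seen, the most read of these were ASPSCR1-204 with 24 reads, all in HepG2, SULT1A1-210 with 16 and H2AFY-218 with 13, and their first exons had 4847, 7329 and 9956 bases.

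Most of the annotated length lay in the last exon. The last exon took more than 50% of the length in 1756 members (77.7%), and these held 93.0% of the reads. First exons took more than 50% in 71 members with 5.23% of the reads, of which ATP5MC3-201 had most, and internal exons did so in 324 members with 215 reads (1.26%). The remaining 108 members had 92 reads. Weighted by reads, the median long transcript had 6705 bases in all, 666 in internal exons, 5584 in the last exon and 969 of coding sequence. The same medians for shorter known spliced models were 1163, 318, 352 and 495 bases.

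The share of members with a read was alike across annotated lengths and varied with the internal exons. Between 5000 and 7000 bases 46.1% of the models had a read, between 7000 and 10000 bases 46.7%, and above 10000 bases 46.4%. By internal exons, 61.7% of the 480 members under 500 bases had a read, against 30.6% of the 369 members at 3000 bases or more. Those 369 members held 240 reads, 1.41% of the total. Members with internal exons of 5000 bases or more numbered 61, and 31 of them (50.8%) had a read, with 72 reads in all. These shares are descriptions, since expression of the genes was not matched.

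**Figure D1:**
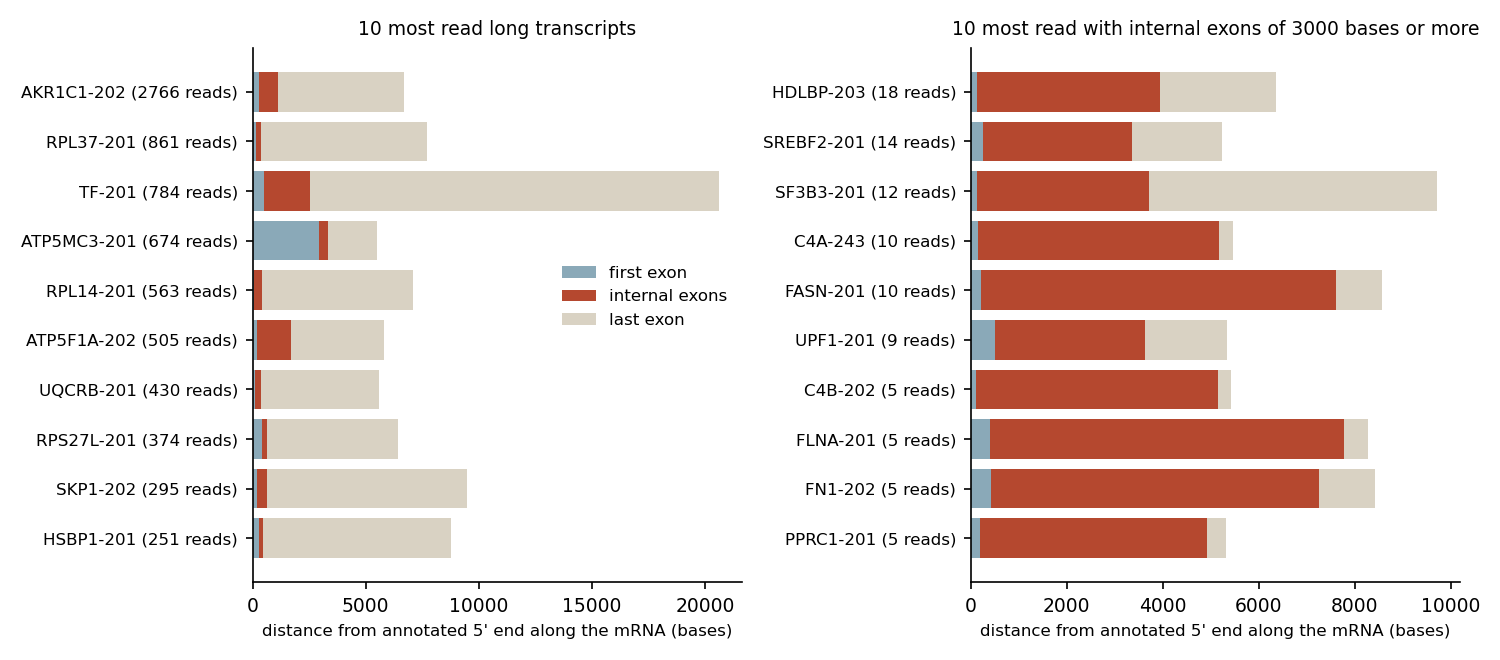
First exon, internal exons and last exon of long known transcripts, in bases from the annotated 5′ end. The left panel has the 10 with most reads over the 8 libraries and the right panel the 10 most read among those with internal exons of 3000 bases or more, with reads in brackets. On the left the last exon takes most of the bar except in ATP5MC3-201, whose first exon has 2952 bases, and no model on the right has more than 18 reads.

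The 10 most read members held 44.0% of the reads: AKR1C1-202, RPL37-201, TF-201, ATP5MC3-201, RPL14-201, ATP5F1A-202, UQCRB-201, RPS27L-201, SKP1-202 and HSBP1-201. The first, a transcript of aldo-keto reductase 1C1, a steroid and aldehyde reductase, alone held 16.2%. TF-201, which encodes the iron carrier transferrin, is annotated at 20602 bases, of which 18055 are its last exon. Among members read in every line with at least 10 reads in all, the longest annotations were GNAI3-201 (27174 bases, an inhibitory G protein alpha subunit, 15 reads), C12orf45-204 (23529 bases, 59 reads), EPN1-202 (16219 bases, the endocytic adaptor epsin, 11 reads), CHST12-201 (15979 bases, a chondroitin sulfotransferase, 11 reads) and MRPL42-206 (15582 bases, a mitochondrial ribosomal protein, 23 reads). Their internal exons summed to 969, 224, 1623, 0 and 477 bases, CHST12-201 having only a first and a last exon.

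Transcripts with long internal exons were read as full splice matches only rarely. They were picked after their values were seen, as the most read with internal exons of 3000 bases or more. HDLBP-203, for the RNA-binding protein vigilin, had 18 reads of 795 reads of its gene. SREBF2-201, for the sterol-regulated transcription factor SREBP2, had 14 of 231, and SF3B3-201, for a splicing factor 3b subunit, 12 of 217. FASN-201 encodes fatty acid synthase and has internal exons of 7405 bases. It had 2 and 1 reads in K562, 1, 2 and 4 in HepG2 and none in GM12878, so 10 of 933 reads of the gene (1.07%). FLNA-201, for the actin cross-linker filamin A (internal exons of 7359 bases), had 5 of 431. FN1-202, for fibronectin (6848 bases), had 5 of 748, and all 5 came from HepG2 replicate 3. Complement component 4 gave 10 reads on C4A-243 and 5 on C4B-202, all in HepG2. These near-identical genes can exchange reads, so their split is uncertain.

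Models of the same genes outside the known ones were much shorter, and their lengths came from the reads. In genes with a long known transcript, models with a new combination of splice sites or a new splice site had a read-weighted median of 1170 bases, and 2.25% of their reads were on models of 5000 bases or more. Incomplete matches that lack the 5′ end had a median of 1029 bases and 0.441% on such models. Over the whole series, 1648 of 1097716 reads outside known models (0.150%) were on models of 5000 bases or more. For RPL37 the model with most reads had 3 exons and 348 bases and held 4257 reads, against 861 on RPL37-201. For 53 long transcripts abundant enough to test, spliced models of the same genes outside the known ones held 24441 reads. Of these, 3 were on a model of 5000 bases or more.

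A long known transcript was seldom the main model of its gene. Over the 2001 genes, long known transcripts took 12.2% of the reads on average over the 8 libraries and shorter known transcripts 9.27%. Incomplete matches without the 5′ end took 21.9%, other incomplete matches 4.87% and new splice combinations or sites 25.5%. Models classed as genomic, whatever their number of exons, took 26.2%. Of 1169 such genes with at least 20 reads, 411 had none on a long known transcript, the median share was 2.86%, and in 26 the share reached 50%. MPLKIP-201 took 97.6% of the reads of its gene, C12orf45-204 78.7%, DNAJC15-201 70.5%, HSBP1-201 66.4% and RPS27L-201 63.4%. TF-201 took 9.16% of 8556 transferrin reads, still above the median share, and 64.4% of these reads were incomplete matches without the 5′ end. SCD-201, for stearoyl-CoA desaturase, took 2.06% of 1654.

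Among the models of the series, genes whose known spliced models were all long had a smaller known share than genes with only shorter ones. Annotated transcripts that are not in the series did not enter this grouping. Known models took 9.72% of the reads in 779 genes of the first kind and 44.8% in 11123 genes of the second (means of 8 libraries), a difference of -35.1 ± 3.24 percentage points (SD, n = 8). The share was lower in 8 of 8 libraries (exact two-sided sign-flip test, p = 0.0078125, the smallest it can give, adjusted p = 0.015625 over the 4 library-level values tested). The same genes entered every library, so the test asks whether the gap repeats across libraries and not how it varies over genes. The 2 kinds of genes were not matched for internal exons in it. Genes with a single known spliced model in the series were also grouped by the length of its internal exons, a grouping made after the data were seen. The long models kept the lower share in each of the 6 classes and in 8 of 8 libraries. With internal exons under 250 bases the share was 26.2 ± 5.32% in 114 genes with a long model and 50.1 ± 1.71% in 1744 genes with a shorter one (SD, n = 8). Between 250 and 500 bases it was 27.9 ± 15.5% in 54 genes with a long model and 57.9 ± 6.43% with a shorter one. The long-model share there varied widely, from 5.95% in K562 replicate 1 to 48.9% in GM12878 replicate 2, where shorter models had 51.5%. Between 500 and 1000 bases it was 14.9 ± 6.35% with a long model and 29.6 ± 1.83% with a shorter one. At 3000 bases or more it was 1.23 ± 0.682% with a long model and 4.07 ± 1.88% with a shorter one. The part of gene expression level in this gap was not tested.

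**Figure D2:**
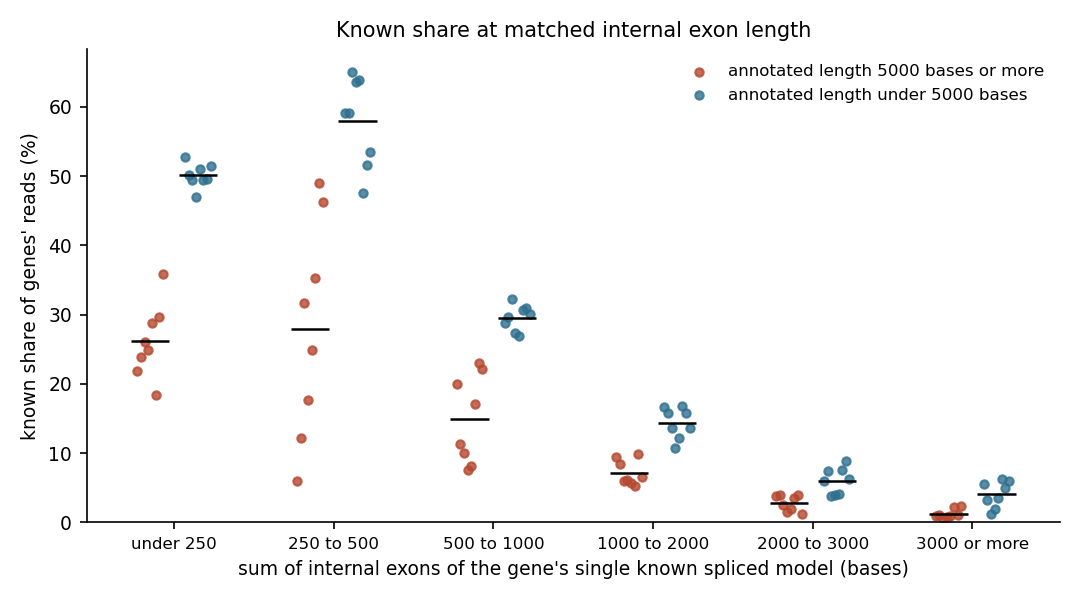
Percent of reads on the known model (y axis) in genes with a single known spliced model, by the sum of its internal exons in bases (x axis), with 1 point per library and a line at the mean. The mean of long models (5000 bases or more) lies below that of shorter ones in every class, 26.2% against 50.1% under 250 bases. Points of the 2 kinds overlap between 250 and 500 bases and from 2000 bases up.

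Long known transcripts took 0.845 ± 0.0873% of all reads in K562 (SD, n = 2), 0.907 ± 0.0661% in HepG2 (n = 3) and 0.889 ± 0.0347% in GM12878 (n = 3), and an exact permutation test over 560 assignments of libraries to lines gave p = 0.554 (adjusted p = 0.554). As a share of reads on known spliced models it was 1.92 ± 0.217% in K562, 2.47 ± 0.0443% in HepG2 and 2.20 ± 0.0472% in GM12878. No libraries of different lines overlapped in it (exact permutation p = 0.00357, the smallest it can give, adjusted p = 0.0143). That order rested on 1 gene. Without AKR1C1, an alternative chosen after seeing the data, the share was 1.90 ± 0.224% in K562, 1.79 ± 0.0805% in HepG2 and 2.20 ± 0.0472% in GM12878 (exact permutation p = 0.0321). HepG2 then had the lowest mean, and the K562 and HepG2 libraries overlapped. AKR1C1-202 held 28.0% of the long-transcript reads in HepG2, 1.12% in K562 and none in GM12878. RPL14-201 held 11.01% of them in K562, 1.51% in HepG2 and 0.0840% in GM12878. As a share of the reads of their own genes, long transcripts took 12.5 ± 0.997% in K562, 11.6 ± 0.863% in HepG2 and 12.6 ± 1.02% in GM12878 (exact permutation p = 0.457, adjusted p = 0.554).

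**Figure D3:**
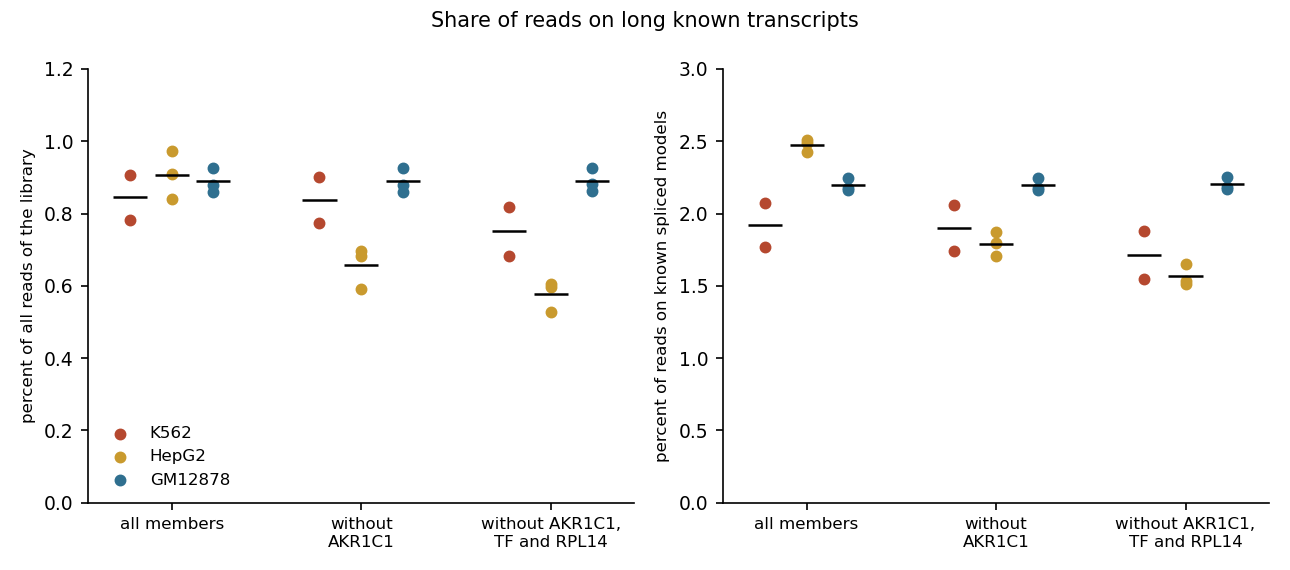
Percent of all reads (left) and of reads on known spliced models (right) that were on long known transcripts, with 1 point per library and a line at the mean of the line. With all members HepG2 is highest on the right at 2.47%. Without AKR1C1 its 3 libraries have a mean of 1.79%, below K562 and GM12878.

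Levels were compared for the 53 long transcripts that passed the filter on low counts. They held 66.1% of the long-transcript reads, and the other 993 members with a read were too low to test. The filter keeps transcripts that are abundant in a single line, so these 53 do not stand for the 2259. They are all protein coding, 52 have most of their length in the last exon, and the sum of their internal exons is at most 2019 bases, with a median of 485. A change was called at an adjusted p under 0.05 and at least 2-fold in edgeR's quasi-likelihood test, adjusted by Benjamini-Hochberg over all 3883 models tested. Each read is 1 molecule, so counts are not scaled by length, and levels are in CPM over all reads of a library with TMM factors. Of the 53, 32 (60.4%) were called in at least 1 comparison, 5 (9.43%) in all 3 and 21 (39.6%) in none, where of all models tested 64.1% were called in at least 1, 4.25% in all 3 and 35.9% in none.

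In HepG2 against GM12878, 27 of 53 long transcripts were called, 9 higher and 18 lower in HepG2. Of all models tested 50.7% were called in this comparison, 32.3% higher and 18.4% lower in HepG2, so the total among the long transcripts was near the background. The balance of directions moved with the filter and the libraries. Without a filter 20 of 36 called were higher in HepG2 (509 tested, 6.66% of all models called). At a minimum count of 5 it was 18 of 45 (97 tested, 42.7% of all models called). It was 15 of 33 without GM12878 replicate 3 (61 tested, 48.8% of all models called). The directions over all models in these settings are not given here. The median log2 change was -0.43 over the 53 and 0.20 over all models. In K562 against GM12878, 12 were called, 3 higher and 9 lower in K562, where 20.8% of all models were called (9.37% higher and 11.4% lower). The median log2 change there was -0.27 over the 53 and 0 over all models. In K562 against HepG2, 20 were called, 10 in each direction, where 43.9% of all models were called (13.7% higher and 30.2% lower), and the medians were 0.20 over the 53 and -0.25 over all models. The comparisons share libraries. For K562 against HepG2 the count was 13 of 41 tested without HepG2 replicate 1 and 12 of 41 without HepG2 replicate 3, where 39.1% and 40.02% of all models tested were called. Fewer cells and less RNA per cell cannot be told apart in such bulk samples.

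The members of largest change in HepG2 were AKR1C1-202 and TF-201. AKR1C1-202 had 52.7 and 100.4 CPM in the K562 libraries, 3458, 3115 and 2834 CPM in HepG2 and no read in GM12878. No libraries of different lines overlapped. Its level averaged 3136 ± 312 CPM in HepG2 (SD, n = 3) and 0 in GM12878, at least 473-fold higher in HepG2 against a floor of 3 reads over the line (adjusted p = 4.37e-18, edgeR), and it was at least 11.6-fold higher in K562 than in GM12878. AKR1C1 has close paralogs, so its counts are uncertain where reads could be shared. TF-201 was read only in HepG2, with 398, 141 and 245 reads. It was at least 132-fold higher in HepG2 than in GM12878 and at least 146-fold lower in K562 than in HepG2 (adjusted p = 5.30e-14 and 3.17e-13, edgeR).

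Other members were also higher in HepG2. ITM2B-202, for an integral membrane protein, had 23.4 and 39.6 CPM in K562, 213, 179 and 231 in HepG2 and 11.8, 14.8 and 24.5 in GM12878. HepG2 lay above both other lines, which overlapped each other (log2 change 3.70 ± 0.45 (SE) in HepG2 against GM12878, adjusted p = 3.02e-08, and -2.63 ± 0.41 in K562 against HepG2, adjusted p = 2.56e-06, edgeR). PCYT2-203, for an enzyme of phosphatidylethanolamine synthesis, had 92.3 ± 7.10 CPM in HepG2 and 9.67 ± 4.09 in GM12878 (log2 change 3.29, adjusted p = 1.39e-05). CNP-202, for a phosphodiesterase known from myelin, had 81.1 ± 23.7 CPM in HepG2 and 9.35 ± 3.19 in GM12878 (log2 change 3.13, adjusted p = 4.23e-05). K562 was lower than HepG2 in both. HSBP1-201, for a small partner of heat shock factor 1, had 135 and 79.1 CPM in K562, 192, 278 and 188 in HepG2 and 41.4, 44.5 and 61.2 in GM12878. The 3 lines did not overlap. HepG2 was above GM12878 by 2.20 ± 0.37 on the log2 scale (adjusted p = 8.27e-06, edgeR). The K562 difference from HepG2, -1.07 ± 0.35, was lost without any 1 of 5 libraries, GM12878 replicate 1, 2 or 3, HepG2 replicate 2 or K562 replicate 2 (log2 changes -0.97, -0.93, -0.98, -0.86 and -0.69). MPLKIP-201, whose gene is mutated in a form of trichothiodystrophy, had 62.4 ± 13.9 CPM in HepG2 and 15.1 ± 9.28 in GM12878 (log2 change 2.21, adjusted p = 0.00143).

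Several members were highest in GM12878. DUSP4-201, for a phosphatase that switches off MAP kinases, had 0 and 1 reads in K562, none in HepG2 and 12, 25 and 4 reads in GM12878. All GM12878 libraries lay above the others, and it was at least 23.2-fold lower in HepG2 than in GM12878 (adjusted p = 2.71e-07, edgeR). In K562 it was 0.0221 of the GM12878 level (95% counting interval 0.000547 to 0.130, adjusted p = 8.82e-05). CCND2-201, for the cell cycle regulator cyclin D2, had 4 and 1 reads in K562, none in HepG2 and 4, 14 and 4 in GM12878, at least 13.5-fold lower in HepG2 than in GM12878 (adjusted p = 1.73e-05, edgeR). Its K562 call over HepG2 rested on 5 reads and was lost without K562 replicate 1 or HepG2 replicate 1 (adjusted p = 0.26 and 0.053, edgeR), and it was too low to test without GM12878 replicate 2 or 3.

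MBD2-201, for a reader of methylated DNA, had 23.4 and 12.2 CPM in K562, 7.99, 9.94 and 3.55 in HepG2 and 118, 124 and 110 in GM12878. GM12878 lay far above both other lines (log2 change -3.98 ± 0.53 in HepG2 and -2.82 ± 0.55 in K562, adjusted p = 1.52e-07 and 0.000187, edgeR). HMGB1-203, for a chromatin protein, had 140 and 106.5 CPM in K562, 45.2, 29.8 and 24.9 in HepG2 and 302, 213 and 281 in GM12878. The lines did not overlap, and it was lower in HepG2 than in GM12878 (log2 change -2.91 ± 0.35, adjusted p = 2.48e-08, edgeR) and higher in K562 than in HepG2 (1.80 ± 0.39, adjusted p = 0.000298). Its call in K562 against GM12878 (-1.11 ± 0.35) was lost without GM12878 replicate 1, 2 or 3 or K562 replicate 2 (log2 changes -0.91, -1.13, -1.04 and -0.86). ELAVL1-201, for the RNA-binding protein HuR, had 7.28 ± 5.27 CPM in HepG2 and 58.1 ± 16.04 in GM12878 (log2 change -2.73, adjusted p = 0.000456). BUB3-203, for a spindle checkpoint protein, had 12.7 ± 12.4 CPM in HepG2 and 60.3 ± 34.6 in GM12878 (log2 change -2.14, adjusted p = 0.00878).

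ARPC5-202, for a subunit of the Arp2/3 actin complex, had 7.49 ± 2.32 CPM in K562, 12.7 ± 4.84 in HepG2 and 87.4 ± 30.1 in GM12878 (log2 change -3.33 in K562 and -2.68 in HepG2 against GM12878, adjusted p = 0.000407 and 9.04e-05, edgeR). CTSC-203, for the lysosomal protease cathepsin C, had 66.0 ± 27.1 CPM in K562, 25.6 ± 6.06 in HepG2 and 123 ± 11.1 in GM12878. It was lower in HepG2 than in GM12878 (log2 change -2.21, adjusted p = 3.25e-05). Its higher level in K562 than in HepG2 (log2 change 1.37) was lost without K562 replicate 2 (0.80, adjusted p = 0.35). CD59-211, for a complement inhibitor anchored in the membrane, had 17.6 and 27.4 CPM in K562 and 58.6, 29.8 and 85.2 in HepG2, without overlap. Its call (log2 change -1.31, adjusted p = 0.0483, edgeR) was kept in the leave-out fits only without HepG2 replicate 2, with log2 changes of -0.97 to -1.73 in the other 7.

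**Figure D4:**
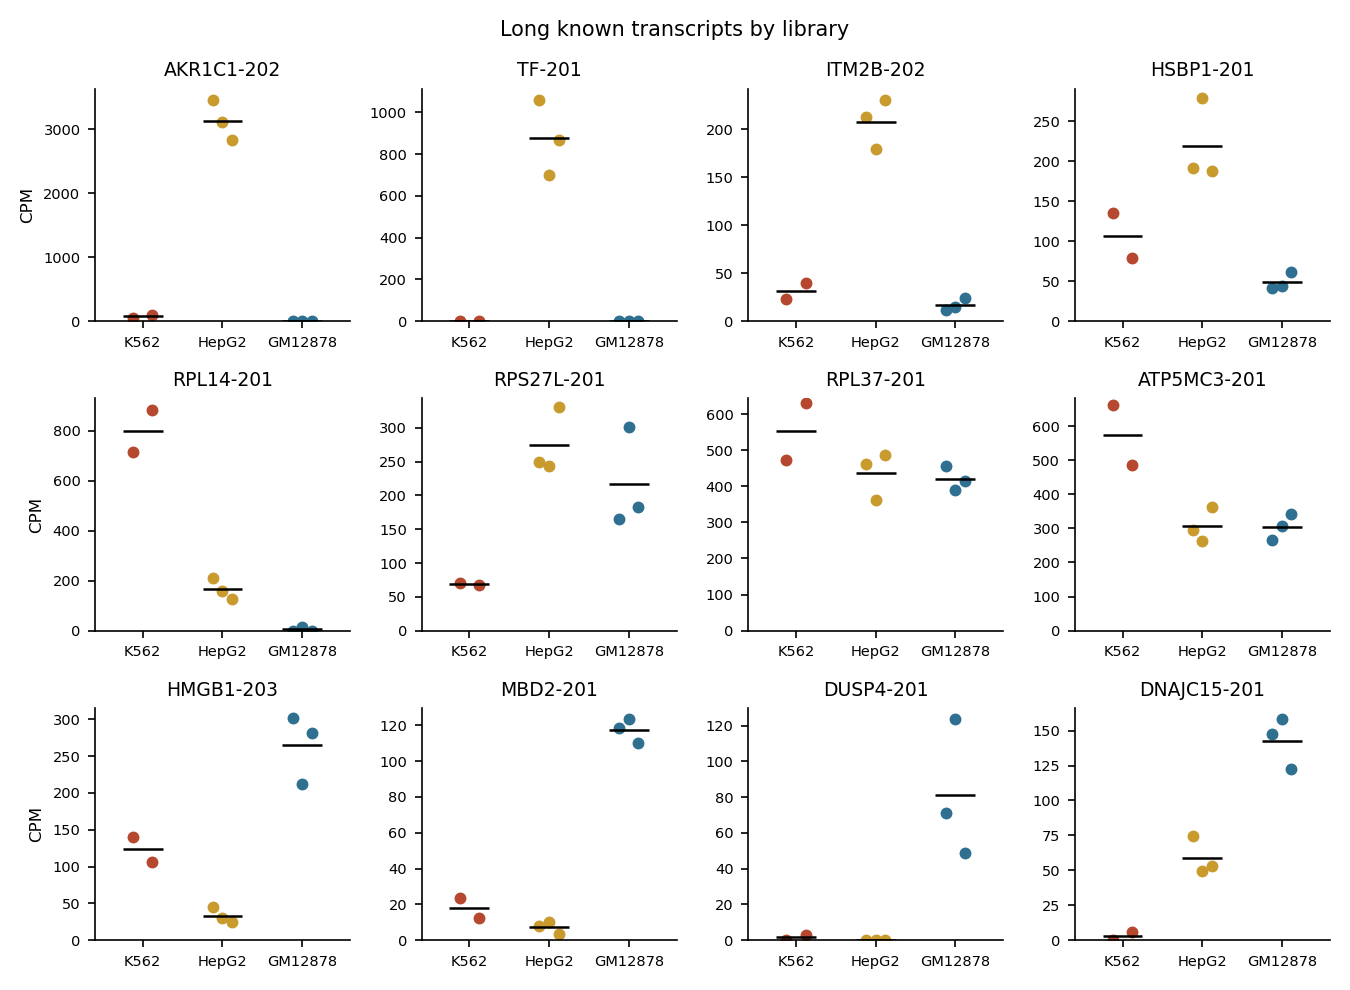
Levels of 12 long known transcripts in CPM (y axis, starting at 0), with 1 point per library and a line at the mean of each line. AKR1C1-202, TF-201, ITM2B-202 and HSBP1-201 are highest in HepG2, RPL14-201 in K562, and HMGB1-203, MBD2-201, DUSP4-201 and DNAJC15-201 in GM12878.

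Transcripts for mitochondrial proteins were among the most read. ATP5MC3-201, for the ring subunit c of ATP synthase, had 661 and 487 CPM in K562, 296, 263 and 362 in HepG2 and 266, 307 and 343 in GM12878. K562 lay above both other lines, but by less than 2-fold (log2 change 0.92 ± 0.27 against GM12878 and 0.89 ± 0.26 against HepG2), and no comparison was called. ATP5F1A-202, for the alpha subunit of the same enzyme, had 198 ± 7.64 CPM in K562, 260 ± 62.1 in HepG2 and 368 ± 54.5 in GM12878, also uncalled. UQCRB-201, for a subunit of respiratory complex III, had 283 ± 103 CPM in K562, 222 ± 26.0 in HepG2 and 176 ± 19.8 in GM12878, uncalled as well. DNAJC15-201, for a chaperone of the mitochondrial inner membrane, had 0 and 2 reads in K562, and 74.5, 49.7 and 53.3 CPM in HepG2 and 148, 158 and 122 in GM12878. The 3 lines did not overlap, and HepG2 was lower than GM12878 (log2 change -1.26 ± 0.37, adjusted p = 0.0044, edgeR). On pooled reads K562 was at 0.0271 of the GM12878 level (95% counting interval 0.00321 to 0.102, adjusted p = 7.50e-07) and at 0.0649 of the HepG2 level (0.00766 to 0.246, adjusted p = 5.68e-05, edgeR). NDUFA9-201, for a subunit of complex I, was lower in K562 (22.2 ± 9.93 CPM) than in GM12878 (63.2 ± 26.0, log2 change -1.68, adjusted p = 0.0302), a call lost without GM12878 replicate 1 or 2 or K562 replicate 2 (log2 changes -1.32, -1.58 and -1.15).

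Among transcripts for translation, RPL37-201 had 474 and 630 CPM in K562, 460, 363 and 487 in HepG2 and 455, 391 and 416 in GM12878. The HepG2 libraries overlapped those of both other lines, K562 lay above GM12878, and no comparison was called (log2 changes of 0.06 to 0.40). RPS27L-201, for a ribosomal protein S27 relative, had 70.2 and 66.9 CPM in K562, 250, 243 and 330 in HepG2 and 166, 302 and 183 in GM12878. K562 lay below both other lines, which overlapped (log2 change -1.69 ± 0.37 against GM12878, adjusted p = 0.000773, and -2.001 ± 0.36 against HepG2, adjusted p = 2.21e-05, edgeR). The first of these was lost without GM12878 replicate 2 (-1.19, adjusted p = 0.057). EIF3M-208, for a subunit of initiation factor 3, had 164 ± 24.97 CPM in K562, 53.1 ± 21.8 in HepG2 and 149 ± 13.7 in GM12878, and HepG2 was lower than both (log2 change -1.50 against GM12878, and 1.61 in K562 against HepG2, adjusted p = 0.000689 and 0.000532, edgeR).

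RPL14-201 had the widest spread among the ribosomal members. It had 122 and 291 reads in K562, 79, 32 and 36 in HepG2 and 0, 3 and 0 in GM12878, that is 714 and 885, 210, 159 and 128, and 0, 14.8 and 0 CPM. The lines did not overlap. On pooled reads it was 125-fold higher in K562 than in GM12878 (95% counting interval 42.4 to 608) and 25.9-fold higher in HepG2 than in GM12878 (8.67 to 127), with adjusted p = 4.67e-12 and 3.61e-08 (edgeR), and it was higher in K562 than in HepG2 (log2 change 2.26 ± 0.30, adjusted p = 1.78e-07). For the reads of the whole gene the log2 change was 1.05 in K562 against GM12878, which was called, 0.12 in HepG2 against GM12878 and 0.93 in K562 against HepG2, which were not. That call was lost without K562 replicate 2, at a log2 change of 0.95. RPL14-208 was the main model in every line, with 1159 reads in K562, 1170 in HepG2 and 673 in GM12878. A read of RPL14-201 or RPL14-202 that stops just short of the first junction has the introns of RPL14-208 and could be counted there. How many such reads RPL14-208 held was not tested. RPL14-202 had 19 reads in K562, 25 in HepG2 and 6 in GM12878. The gene has processed copies elsewhere in the genome, and whether reads were shared with them was not tested.

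The gene of a called member was mostly called too, in a sum that contains the member's own reads. With the reads of all models summed by gene, 23 of the 27 members called in HepG2 against GM12878 had a gene called in the same direction, 12 of 12 did in K562 against GM12878, and 16 of 20 in K562 against HepG2, and none had a gene called in the opposite direction. Over all called models with a tested gene the shares were 82.9%, 85.8% and 82.9%. The exceptions were GMPS-203, GRSF1-201, RPL14-201 and RSL1D1-204 in the first comparison and CTSC-203, GRWD1-201, RPL14-201 and RSL1D1-204 in the last. Of the genes with a long known transcript, 538 passed the gene filter. In HepG2 against GM12878, 254 were called, 127 in each direction, where 49.2% of 4778 genes were called (28% higher and 21.2% lower). The even split did not hold under other filters. At a minimum count of 5, 222 of 391 called were higher in HepG2 (1008 tested, 43.7% of all genes called). Without a filter it was 270 of 468 (1874 tested, 28.1% of all genes called). In K562 against GM12878 64 were higher and 104 lower, where 28.7% of genes were called (13.9% higher and 14.8% lower), and in K562 against HepG2 100 were higher and 143 lower, where 44.1% were called (17.4% higher and 26.7% lower).

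The share of a gene's reads on its long transcript was called different between lines for 2 members. HSBP1-201 took 67.1% of the reads of its gene in K562, 66.1% in HepG2 and 67.7% in GM12878, and RPL37-201 took 13.5%, 12.5% and 12.5% in the same lines. AKR1C1-202 took 40.4% in K562 and 40.5% in HepG2. In a test of shares over all models (diffSpliceDGE of edgeR, with calls that needed an adjusted p under 0.05 and 10 percentage points of shift or more), 1 of 140 members was called in HepG2 against GM12878, where 0.357% of 14267 models were called (0.133% higher and 0.224% lower). In K562 against GM12878 it was 1 of 136 (0.166% of 13838 models, 0.101% higher and 0.065% lower), and in K562 against HepG2 1 of 146 (0.141% of 14868 models, 0.0807% higher and 0.0605% lower). Members with an unadjusted p under 0.05 numbered 6 (4.29%, against 8.25% of all models), 4 (2.94%, against 4.55%) and 7 (4.79%, against 6.05%) in the same order of comparisons.

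RPL14-201 was the member called in both K562 comparisons. It took 20.7% and 22.2% of the RPL14 reads in the K562 libraries, 9.43%, 7.73% and 7.05% in HepG2 and 0, 0.822% and 0 in GM12878. No lines overlapped. The shift was 21.4 percentage points in K562 against GM12878 (adjusted p = 1.32e-17, diffSpliceDGE), and the call was kept without each library in turn. The shift of 13.4 points in K562 against HepG2 (adjusted p = 0.0461) was not called without GM12878 replicate 1 or 2, HepG2 replicate 1, 2 or 3 or K562 replicate 2, with shifts of 12.4 to 14.4 points. In HepG2 against GM12878 its shift was 7.96 points (adjusted p = 2.91e-08, diffSpliceDGE), under the 10 points needed for a call. RSL1D1-204, a transcript of a nucleolar protein, was the member called in HepG2 against GM12878. It took 24.6% and 12.6% of its gene's reads in K562, 10.1%, 6.45% and 9.09% in HepG2 and 31.8%, 35.7% and 26.3% in GM12878. HepG2 lay below both other lines, and the shift from GM12878 was -24.0 points (adjusted p = 0.0340, diffSpliceDGE). That call rested on 22 reads in HepG2 and 44 in GM12878 and was lost without any 1 of the 6 libraries of these lines, with shifts of -21.1 to -25.1 points.

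**Figure D5:**
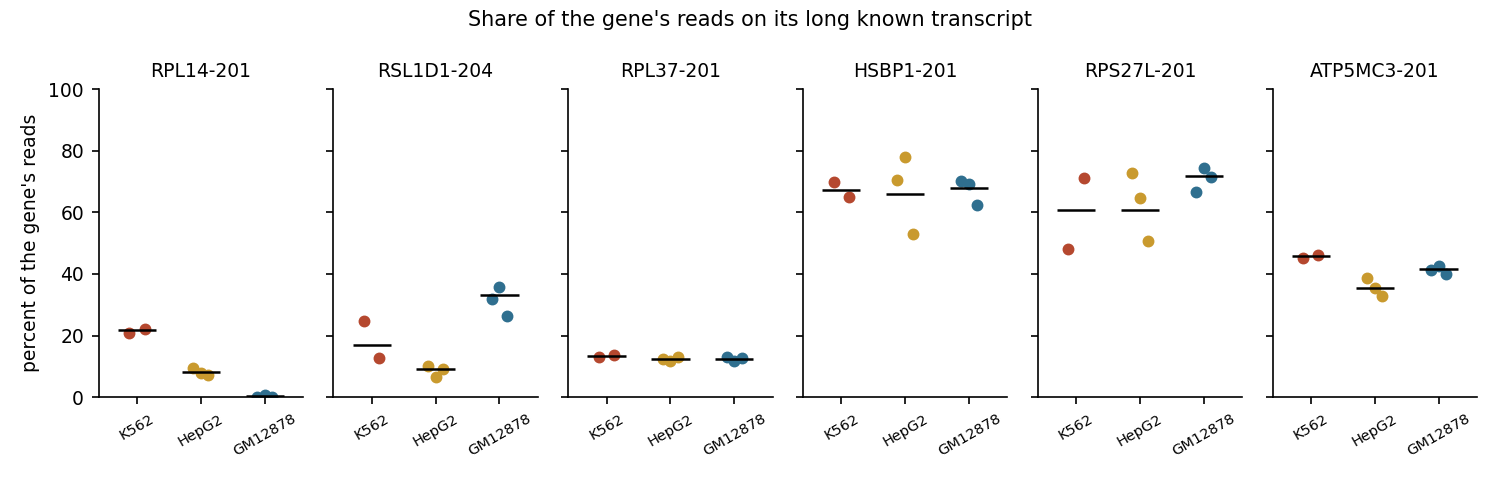
Percent of the gene's reads on its long known transcript (y axis) for 6 genes, with 1 point per library and a line at the pooled share of the line. RPL14-201 is at 21.7% in K562, 8.34% in HepG2 and 0.377% in GM12878, while the pooled shares of RPL37-201 lie between 12.5% and 13.5%.

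The 13 lists held genes known for large proteins or for roles in these lines. The models of the series do not hold every annotated transcript. Among them, 140 of 383 list genes had a long known transcript and 69 had a read on it. Their long transcripts took 444 of 18335 reads of these genes (2.42%), and 2 of them, CD59-211 and CCND2-201, were abundant enough to test. In the ubiquitin ligase list the share was 1 of 486 reads, in nuclear pore and lamina 3 of 665, in vesicle coats 3 of 645, in plasma proteins and lipoprotein receptors 20 of 3373, and in transcription and chromatin 10 of 1076. Cytoskeletal cross-linkers and motors gave 16 of 1392, replication and DNA repair 7 of 567, and extracellular matrix 18 of 1353. Larger shares came from lipid metabolism with 67 of 3729 reads, of which SCD-201 gave 34, translation with 44 of 1105, of which EIF4EBP2-201 gave 32, and erythroid and leukaemia genes with 22 of 522, of which BCR-201 gave 11. The splicing list gave 117 of 2193, of which NUCKS1-201 gave 33, and the lymphoid list 116 of 1229, of which CD59-211 gave 83.

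For these genes the reads of all models together could be compared. The filter keeps genes that are abundant in a single line, and the lists were chosen for roles in these lines, so the direction of a list such as the lymphoid or plasma one is partly set by that choice and the counts are a description. In the lymphoid list 8 of 10 tested genes were lower in HepG2 than in GM12878, where 21.2% of all genes were lower, and 8 of 10 were lower in K562 than in GM12878, where 14.8% were. In the plasma protein list and in the extracellular matrix list 5 of 6 tested genes each were higher in HepG2 than in GM12878 and none was lower, where 28% of all genes were higher. All 6 tested matrix genes were lower in K562 than in HepG2, where 26.7% of all genes were. In the nuclear pore and lamina list 5 of 5 tested genes were higher in K562 than in HepG2, where 17.4% of all genes were higher. Among these the call of NUP107, a scaffold protein of the pore, was lost without K562 replicate 2 (log2 change 1.45, adjusted p = 0.203, edgeR). In the replication list 4 of 5 tested genes were lower in HepG2 than in GM12878, where 21.2% of all genes were. Among these the call of MSH6, a mismatch repair protein, was lost without GM12878 replicate 1, HepG2 replicate 1 or HepG2 replicate 2 (log2 changes -1.01, -1.18 and -0.80). In the splicing list 0 of 11 tested genes were higher and 1 was lower in HepG2 than in GM12878.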

How the data were processed

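Native RNA of 8 libraries (K562, 2; HepG2, 3; GM12878, 3) was sequenced directly from total RNA, per the labels. The submitters' processing notes name minimap2 and hg38. The authors deposited 3 TALON tables of read counts per transcript model, not normalised, with other columns for the length and the number of exons of each model, per the file headers. For TALON no version was given in the sources used here. Exon structures and sequences came from GENCODE 29 on GRCh38, which all 35496 known models matched by identifier.

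Transcript counts, and counts of all models summed by annotated gene, were filtered with filterByExpr (minimum count 10), scaled by TMM and tested with edgeR 4.0.16 (R 4.3.3; robust glmQLFit, glmQLFTest, two-sided) in 1 fit over 8 libraries with Benjamini-Hochberg adjustment, and calls needed an adjusted p under 0.05 and an absolute log2 change of at least 1. The SE of a log2 change was worked back from this test, as the absolute change divided by the square root of its F statistic. Shares of gene reads were tested with diffSpliceDGE on models with at least 10 reads. Library-level shares used exact permutation over 560 assignments or sign flips. All were tested on simulated data first. A line without reads was set at a floor of 3 reads over the line (6.01 CPM in K562, 3.49 in HepG2, 6.62 in GM12878), and such floors, like the 95% intervals, hold for counting error alone. Libraries of 1 line differed by more than sampling noise (chi-square 1.35 to 4.65 per degree of freedom) and were each counted, though repeat preparations of 1 RNA could differ as much.

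The members, the gene lists and the tests were chosen with earlier results of these data known. Named transcripts were the 10 most read, per comparison and direction up to 8 called without overlap of libraries and with at least 50 CPM in the higher line by change after adding 10 CPM, the most read and up to 3 called per list, called shares, the 5 longest with 10 reads and a read in every line, and those next to 5000 bases. Long-internal and noncoding examples were picked after seeing their values. Alternatives were other lengths, size factors, filters, DESeq2 1.42.0, known models only, a replicate block and leaving out each library.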

Additional observations from a re-analysis of the deposited data

How the results depend on the processing

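Without all reads of AKR1C1 the mean share of long transcripts among known spliced reads was 1.97% (exact permutation p = 0.0321). Without all reads of AKR1C1, TF and RPL14 it was 1.84% (exact permutation p = 0.0143). In both the highest line was GM12878 and no longer HepG2. These alternatives, chosen after seeing the data, gave 0.789% and 0.738% of all reads (exact permutation p = 0.0179 and 0.00357) and 11.2% and 11.3% of the genes' reads (exact permutation p = 0.0321 and 0.0179), with HepG2 lowest. A length of 7000 bases gave 0.327% of all reads (exact permutation p = 0.0321, K562 highest) and 11.3% of the genes' reads (exact permutation p = 0.0321). The median share over genes with at least 10 reads was 2.74% in K562, 1.49% in HepG2 and 3.45% in GM12878. With a minimum count of 5, 45 of 97 long transcripts were called in HepG2 against GM12878, where 42.7% of 8095 models were. Over all models the 3 comparisons gave 3456, 1220 and 3041. The genes called were 391 of 1008 in HepG2 against GM12878 (43.7% of all 7278 tested) and 365 of 1008 in K562 against HepG2 (39.2%). Without a filter the genes were 468 and 423 of 1874 (3910 and 3461 of all 13899 genes, 28.1% and 24.9%). The models called in HepG2 against GM12878 and in K562 against HepG2 were then 4233 and 3161 of 63593. DESeq2 called 13 of 53 long transcripts in K562 against HepG2, where it called 35.4% of 3883 models. In K562 against GM12878 it called 109 of 538 genes with a long transcript, and 20.8% of all 4778 genes. Leaving out each GM12878 or HepG2 library gave 12 to 22 long transcripts in K562 against HepG2, of 41 to 63 tested. In these fits 38.2% to 44.9% of all models were called. Share calls of members were then 0 in HepG2 against GM12878 and 0 to 1 in K562 against HepG2. With the replicate block, the share calls in HepG2 against GM12878 and in K562 against HepG2 were 0 each. Long transcripts called were 26, 12 and 15 of 53, where 49.8%, 19.96% and 41.2% of all models were. Same-numbered libraries did not deviate together (correlations -0.055 to 0.040), so the numbers were not taken as pairs. Known models alone, 1825 tested, gave 828, 461 and 757 calls. In K562 against GM12878 the models called were 1251 without K562 replicate 1 and 477 without K562 replicate 2. Share calls over all models were 15 to 61, 13 to 28 and 13 to 26 in the leave-out fits, 32 and 11 with the block in both HepG2 comparisons, 20 and 4 with known models alone against GM12878, and 29 with 20 reads per model in HepG2 against GM12878. Of 3599 settings for named transcripts, 3386 kept direction and side of the threshold, 175 lost a call, 38 gained one and 0 turned direction. The cause of these moves was not tested. Depth limits the rest: 993 members with a read were too low to test.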
